A study of Mus musculus with 8 samples.

Results

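The cells described here were the CD4 central memory T (Tcm) cells found after stimulation in a single-cell RNA sequencing study of T cells lacking succinate dehydrogenase subunit A (SDHA). They were chosen by the annotation deposited with the cells, as all cells of the 4 stimulated libraries in the CD4 class and in a subset named Tcm, and they numbered 1593 of the 12846 T cells of the 8 libraries. T cells were purified from the spleens of mice, 8 to 12 weeks of age, that were either WT or, as SDHA-KO, Sdha fl/fl with a CD4-Cre transgene. Stimulated cells were cultured for 48 hours with anti-CD3 at 5 µg/mL and anti-CD28 at 2.5 µg/mL. For the unstimulated cells no time in culture is given. Dead cells were removed before 3′ libraries were made, with 2 libraries for each genotype and condition. The CD4-Cre transgene deletes the floxed gene during thymic development, so CD8 T cells carried the deletion too. The labels name the controls only as WT and do not say whether they carried the floxed allele, nor whether replicates came from different mice, so p-values measure only the spread between these libraries, which may be technical. The WT libraries held 540 and 594 CD4 Tcm cells with 6787841 and 7459561 unique molecular identifiers (UMIs, 1 per captured transcript), against 236 and 223 such cells in the SDHA-KO libraries, whose UMIs numbered 2013547 and 2041144. No unstimulated library held a cell annotated as CD4 Tcm. Libraries are given below in the order WT replicate 1, WT replicate 2, SDHA-KO replicate 1, SDHA-KO replicate 2, and the CD4 effector memory T (Tem) cells of the same libraries, 319, 373, 901 and 1061 cells, served for comparison. Of the Tcm cells, 7 had a cell barcode that also occurred in another library.

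Central memory T cells are antigen-experienced cells that keep the lymph node homing receptor CCR7 and the IL-7 receptor, and that divide and make IL-2 when they meet antigen again. Effector memory T cells lack CCR7 and carry more of the adhesion molecules and cytokines used in tissues. SDHA is the catalytic subunit of mitochondrial complex II, which oxidizes succinate to fumarate in the TCA cycle and passes the electrons to the respiratory chain. T cells that leave quiescence draw on this chain and on glycolysis to grow and divide.

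The name Tcm was first compared with the cells' transcripts, as CPM, the UMIs of a gene scaled to a fixed total of all UMIs that a subset held in a library. Because the subsets had been cut from clusters of these same genes, Tcm and Tem cells are described without a test. Cd4 was found at 204, 207, 457 and 457 CPM in the Tcm and 59.3, 64.7, 135 and 132 CPM in the Tem cells, so it was higher in Tcm cells of all 4 libraries. Several genes of the central memory program stood higher as well. Ccr7 was found at 500.5, 522, 767 and 972 CPM in the Tcm and 288, 292, 369.7 and 457 CPM in the Tem cells. Il7r, which encodes the IL-7 receptor alpha chain, was found at 50.2, 81.5, 322 and 226 CPM in the Tcm and 20.1, 24.3, 87.8 and 62.00 CPM in the Tem cells. For both genes the Tcm value exceeded the Tem value in each library. Lef1, Satb1 and Bach2, transcription factors that hold T cells in a naive or memory state, were also higher in Tcm cells of every library. Tcf7, which encodes the memory factor TCF1, was not: its log2 ratio of Tcm to Tem cells was -0.22, -0.03, 0.00 and 0.25. Klf2, a quiescence factor, was lower in Tcm cells, with log2 ratios of -0.23, -0.52, -0.99 and -0.40.

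The effector memory markers did not set the subsets apart in the way their name would have it. Cd44, the classical marker of antigen experience, was found at 229, 210.3, 375 and 542 CPM in the Tcm and 76.3, 67.6, 99.7 and 126 CPM in the Tem cells. Itga4 and Itgb1, the chains of the integrin VLA-4, had log2 ratios of 1.48 to 1.63 and of 1.31 to 1.82, and so were higher in Tcm cells of all 4 libraries. In contrast, Lgals1, Ccl5, S100a4 and S100a6 were lower in Tcm cells in all 4. Some of these levels were very low. In Tcm cells S100a4 was at 0.442, 0.134, 6.46 and 3.43 CPM and Ccl5 at 3.68, 4.56, 9.93 and 7.84 CPM. S100a6 was at 1.77 and 3.35 CPM in the WT Tcm cells. Summed over 10 effector memory markers, the level was 598, 607, 1060.3 and 1234 CPM in Tcm and 436, 421, 735 and 725 CPM in Tem cells. Summed over 9 central memory or naive-like markers, it was 3201, 3474, 6439.9 and 6407 CPM in Tcm and 1331, 1384, 2632 and 2562 CPM in Tem cells. Both sums were therefore higher in the cells called Tcm, and the median gene of 6372 genes with an average of at least 20 CPM was higher in them too, with log2 ratios of 0.54, 0.56, 0.62 and 0.63. TMM scaling over both subsets, explained with the comparison of genotypes, moved each log2 ratio by -0.83 to -0.79, which puts the effector memory sum and the median gene lower in Tcm cells and Ccr7 of the WT libraries near an equal level. The cells are therefore called Tcm here only as their annotation has it.

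**Figure D1:**
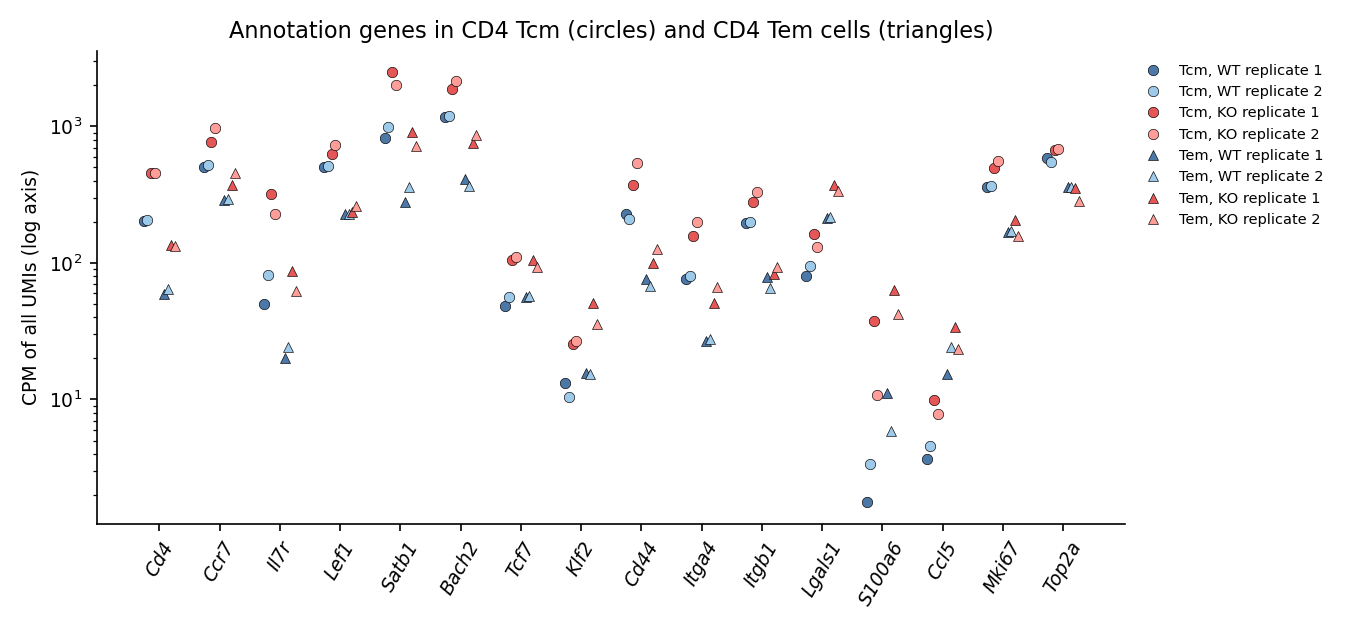
Level of annotation genes in CPM of all UMIs (log axis) in CD4 Tcm cells (circles) and CD4 Tem cells (triangles), 1 point per stimulated library, with WT libraries in blue and SDHA-KO libraries in red. Cd4, Ccr7, Il7r, Lef1, Satb1 and Bach2 lie higher in Tcm cells of each library, and so do Cd44, Itga4 and Itgb1, while Lgals1, S100a6 and Ccl5 lie lower.

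Foxp3, which defines regulatory T cells, reached 0.737, 0.804, 0.993 and 0 CPM in Tcm cells. The 7 regulatory T cell markers together summed to 1621, 1807, 2580 and 2462 CPM in Tcm and to 1019, 1033, 1349 and 1241 CPM in Tem cells, mostly from Il2ra, Tnfrsf18 and Ctla4, which activated T cells express as well. Il2ra was at 501, 567, 725 and 663 CPM and Tnfrsf18 at 615, 701, 1254 and 1199 CPM in Tcm cells, and Ctla4 and Ikzf2 are given below. Defining markers of cells other than T cells were scarce. The myeloid genes Lyz2, C1qa and S100a8 were at 0 in all 4 libraries, and 8 myeloid markers summed to 102, 92.0, 248 and 206 CPM, of which Cst3 made up 98.9, 88.6, 234 and 199 CPM. The 6 B cell markers summed to 19.2, 16.9, 26.3 and 30.4 CPM, and the 6 NK cell markers to 18.4, 13.3, 40.2 and 32.8 CPM. Both hemoglobin alpha genes were at 0. The 6 gamma-delta T cell markers in the data summed to 7.37, 5.63, 22.8 and 23.5 CPM, and the constant region gene Trdc to 2.95, 2.82, 13.4 and 12.2 CPM. All these sums, that of the regulatory T cell markers included, were larger in the SDHA-KO libraries, and their part in the comparison of genotypes was not tested. Among the Tcm cells, 17.2%, 18.9%, 17.4% and 14.3% held both a Cd4 and a Cd8a or Cd8b1 UMI. A stricter set of cells, with a Cd4 UMI and no Cd8a, Cd8b1 or Trdc UMI, made up 59.6%, 59.6%, 63.1% and 68.6% of them.

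The most evident trait of the Tcm cells was their low UMI number and their high mitochondrial percentage, which is the share of a cell's UMIs that come from the 13 genes encoded by mitochondrial DNA. The median Tcm cell held 10849, 10875, 6871.5 and 7418 UMIs, and the median Tem cell held 60983, 61520, 28229 and 28380 UMIs. In the SDHA-KO libraries the Tcm median was well below the library median of 25116.5 and 25465.5 UMIs, whereas in the WT libraries the library median was 13809 and 13745 UMIs. The median mitochondrial percentage of Tcm cells was 21.8%, 20.6%, 11.2% and 11.1%, against 2.90%, 2.76%, 1.32% and 1.31% in Tem cells. Per cell, the median number of mitochondrial UMIs was 2323, 2255, 854 and 902 in Tcm and 1753, 1685, 337 and 349 in Tem cells. So the higher percentage in Tcm cells came with more mitochondrial UMIs per cell as well as with fewer UMIs of nuclear genes, of which the median Tcm cell held 8432, 8523.5, 6027 and 6353.

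**Figure D2:**
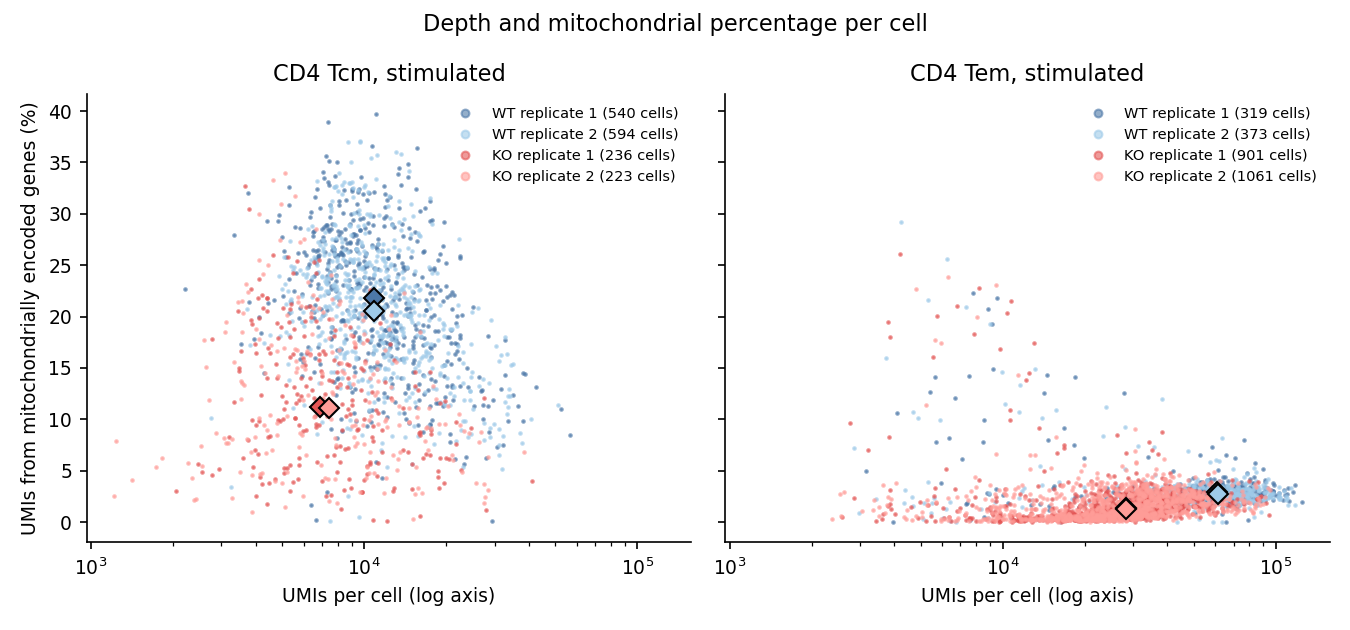
Share of UMIs from mitochondrially encoded genes (%) against UMIs per cell (log axis) for each CD4 Tcm cell (left) and CD4 Tem cell (right) of the 4 stimulated libraries, with diamonds at each library's medians. Tcm cells gather at few UMIs and high mitochondrial percentages, and the SDHA-KO medians (11.2% and 11.1%) lie below the WT medians (21.8% and 20.6%).

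The genes with the largest mean ratio of Tcm to Tem cells followed the same line. Of the 10 highest, 9 were mitochondrially encoded (mt-Co2, mt-Atp6, mt-Co3, mt-Nd6, mt-Nd2, mt-Nd1, mt-Nd4l, mt-Atp8 and mt-Co1) and the other was the noncoding RNA Tsix. Mt-Co2, a core subunit of complex IV, was found at 38695, 36517, 21293 and 22218 CPM in the Tcm and 5421, 5087, 3374 and 3431 CPM in the Tem cells. The 10 lowest were Gapdh, Atp5e, Tmsb10, Pfn1, Selenow, Slc25a39, Mea1, Rpl32, Rps4x and Actb, among them genes of glycolysis, ATP synthase, the actin cytoskeleton and the ribosome. Gapdh, a glycolytic enzyme, was found at 888, 994, 573 and 442 CPM in the Tcm and 5674, 5916, 2641 and 2319 CPM in the Tem cells. Ribosomal protein genes held 11.4%, 11.9%, 10.2% and 9.64% of the UMIs of Tcm cells and 34.6%, 35.4%, 31.5% and 30.1% of those of Tem cells. Transcripts that stay in the nucleus (Malat1, Neat1, Xist and others, a list made after the values were seen) held 1.32%, 1.25%, 1.09% and 1.01% against 0.288%, 0.256%, 0.290% and 0.278%. Nuclear genes of the respiratory chain went the opposite way to the mitochondrial ones, with a median log2 ratio of -1.03 to -1.29 over 37 complex I genes and of -1.25 to -1.54 over 34 genes of complexes III to V.

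The share of Tcm cells among the stimulated CD4 cells differed widely between the genotypes. It was 62.9% (95% exact binomial interval 59.5 to 66.1) and 61.4% (58.3 to 64.5) in the WT libraries, a mean of 62.1% ± 1.02 (SD, n = 2). In the SDHA-KO libraries it was 20.8% (18.4 to 23.2) and 17.4% (15.3 to 19.6), a mean of 19.1% ± 2.40 (SD, n = 2). Such intervals cover counting error only. With 2 libraries against 2 the smallest two-sided p of an exact permutation test is 0.333, so shares were not tested. Of all T cells of a library, Tcm cells made up 31.7%, 33.0%, 14.3% and 13.3%. The gap was nearly the same for strict cells, at 66.1%, 65.3%, 23.4% and 20.1%. Among CD4 cells with under 10% mitochondrial UMIs, Tcm cells made up 9.23%, 10.1%, 10.3% and 8.91%, and the mean difference was -0.0466 percentage points. That limit kept 31 and 40 Tcm cells of the WT and 102 and 103 of the SDHA-KO libraries, or 5.74%, 6.73%, 43.2% and 46.2% of the Tcm cells, but 95.6%, 95.4%, 98.3% and 99.2% of the Tem cells. The part of the mitochondrial percentage in the difference of shares was not tested.

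The annotation divides the Tcm cells into 5 numbered clusters, Tcm1 to Tcm5, present in all 4 libraries. Tcm2 held 184, 228, 88 and 72 cells and Tcm4 held 179, 163, 74 and 75 cells, the largest clusters. Tcm2 was led by the chemokine gene Xcl1, Plac8 and the lymphotoxin gene Lta, had the lowest Mki67 level (213 CPM, against 509 CPM in the other Tcm cells) and median mitochondrial percentages of 26.0%, 23.0%, 15.6% and 15.2%, which only those of Tcm1 in the SDHA-KO libraries exceeded. Tcm3, with 83, 106, 54 and 48 cells, was led by genes of chromosome duplication such as Esco2 and Hist1h2bn and by Mxd3, and it had the highest level of the DNA topoisomerase gene Top2a (981 CPM, against 549 CPM in the other Tcm cells). Tcm4 was led by Stard13, Lancl3 and Tnfsf11, which encodes RANKL, and held more Cd44 (435 against 258 CPM) and Il2 (193 against 73.2 CPM). Tcm1, with 50, 52, 6 and 10 cells, was led by Myh11, Nfe2l3 and Nts. Tcm5, with 44, 45, 14 and 18 cells, had Cd8a and Cd8b1 among its leading genes and the most UMIs per cell, with medians of 19814.5, 19712, 15427.5 and 13390.5. These genes defined the clusters and are a description, and those of Tcm1 and Tcm5 rest mostly on the WT libraries. Within each cluster the median mitochondrial percentage was lower in the SDHA-KO than in the WT libraries.

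SDHA-KO and WT Tcm cells were then compared gene by gene, with the UMIs of all Tcm cells of a library summed and tested with edgeR (quasi-likelihood test, Benjamini-Hochberg adjustment, adjusted p under 0.05 called). Levels in this comparison are CPM scaled by the trimmed mean of M values (TMM), and fold changes are SDHA-KO against WT on the log2 scale. Of 11767 genes tested, 1505 were higher and 1451 lower in SDHA-KO Tcm cells, or 25.1% of the genes in all, 12.8% higher and 12.3% lower. The median fold change over all genes was 0.00. Without the composition factor the median moved to 0.21, and the higher genes made up 76.7% instead of 50.9% of the calls, so a list median below about that size depends on the scaling. The calls numbered 1338 without WT replicate 2 and 1502 without WT replicate 1.

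The targeted gene came first. Sdha (mm10 chr13:74322254-74350280, minus strand) was found at 96.5 and 95.9 CPM in the WT and 49.7 and 63.96 CPM in the SDHA-KO libraries and fell (log2 change -0.76 ± 0.126 SE, adjusted p = 0.00331), with the groups apart. In Tem cells of the same libraries its log2 fold change was -1.70, and the difference between the subsets was 0.92 ± 0.14 SE, adjusted p = 0.00464. At equal depth, with every cell thinned to 5000 UMIs, 36.0%, 30.9%, 21.5% and 25.9% of Tcm cells held an Sdha UMI (60.4%, 56.7%, 36.9% and 39.9% without thinning), and 35.8%, 30.7%, 12.5% and 11.9% of Tem cells did. In unstimulated naive CD4 cells of the same genotypes, a population that also expresses Sdha, the thinned share was 34.8%, 37.4%, 19.8% and 17.8%. Sdha transcripts were thus reduced in SDHA-KO Tcm cells, and less so than in SDHA-KO Tem cells. The 3′ reads do not show whether a remaining transcript carried the deletion.

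The genes used for annotation also moved with genotype within the Tcm cells. Cd4 rose (log2 change 0.94 ± 0.0803 SE, adjusted p = 0.000118), from 219 and 225 to 427 and 426 CPM. Il7r rose from 53.9 and 88.5 to 301 and 211 CPM (log2 change 1.84 ± 0.228 SE, adjusted p = 0.000823). Cd44 (0.85, adjusted p = 0.00426), Itga4 (0.98, adjusted p = 0.000675), Tcf7 (0.84, adjusted p = 0.00149) and Ccr7 (0.56, adjusted p = 0.00814) rose as well. The call of Ccr7 was lost without WT replicate 1, at 0.50, and the calls of Itga4, Tcf7 and Ccr7 were lost in cells with under 10% mitochondrial UMIs. Markers of central and of effector memory thus both stood higher in the SDHA-KO Tcm cells. Cd8a did not pass the test (0.22, adjusted p = 0.388), and Foxp3 was too low to be tested.

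**Figure D3:**
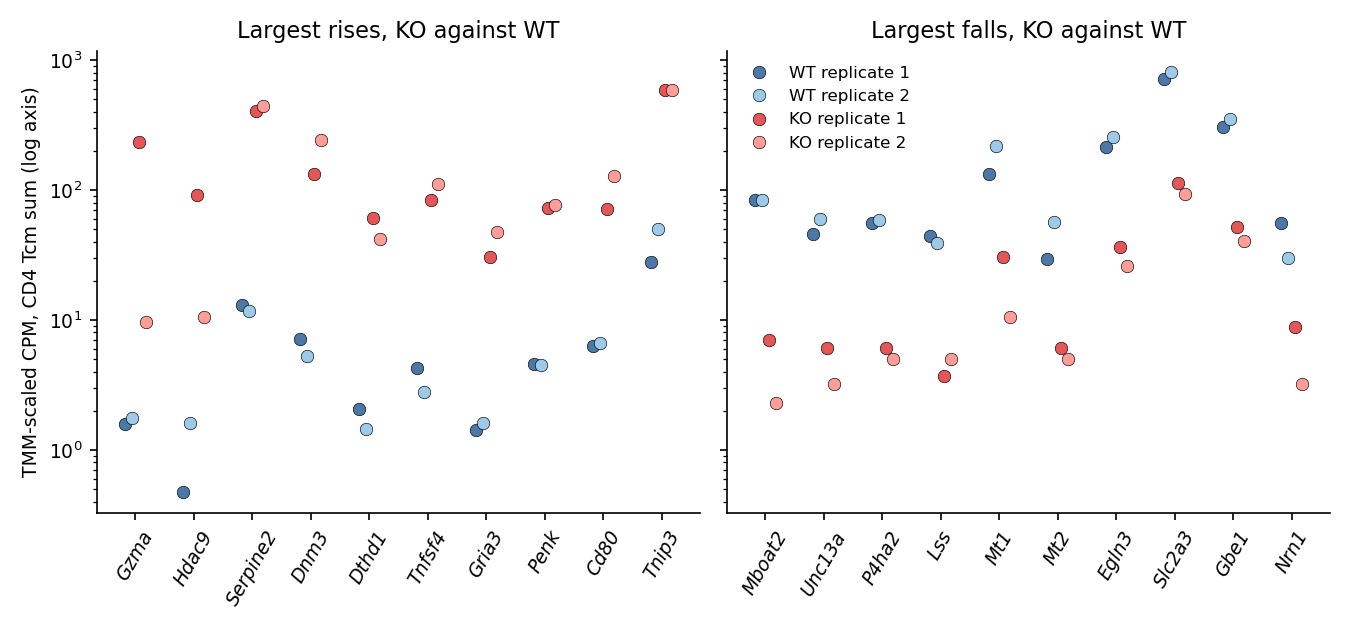
TMM-scaled CPM (log axis) in the CD4 Tcm cells of each stimulated library for the 10 largest rises (left) and the 10 largest falls (right) among called genes with at least 20 CPM on average. The SDHA-KO libraries (red) lie above both WT libraries (blue) on the left and below both on the right, and Gzma and Hdac9 differ widely between the SDHA-KO libraries.

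The largest even rise was that of Serpine2 (mm10 chr1:79794197-79861180, minus strand), which encodes a secreted inhibitor of serine proteases. It was found at 12.96 and 11.8 CPM in the WT and 407 and 446 CPM in the SDHA-KO libraries (log2 change 5.11 ± 0.115 SE, adjusted p = 2.06e-07), and at 5000 UMIs per cell 4.76%, 3.42%, 61.3% and 65.8% of Tcm cells held a Serpine2 UMI (8.15%, 6.40%, 61.4% and 69.1% without thinning). Among unstimulated naive CD4 cells at most 0.431% did. The transcript was thus present in most SDHA-KO Tcm cells and in few WT Tcm cells. Tnfsf4, which encodes the costimulatory ligand OX40L, rose from 4.27 and 2.77 to 83.5 and 110.1 CPM (log2 change 4.78 ± 0.226 SE, adjusted p = 1.02e-05). Cd80, a ligand of CD28 and CTLA-4, rose from 6.32 and 6.69 to 71.5 and 128 CPM (log2 change 3.93 ± 0.286 SE, adjusted p = 5.92e-05). Tnip3, an inhibitor of NF-kB signaling, rose from 27.8 and 50.1 to 589 and 583 CPM (log2 change 3.90 ± 0.208 SE, adjusted p = 1.55e-05). Of these genes, a Tnfsf4 UMI was found at equal depth in 1.14%, 1.71%, 29.3% and 39.2% of Tcm cells (3.33%, 2.53%, 35.2% and 51.1% without thinning) and in at most 0.749% of unstimulated naive CD4 cells.

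Dnm3, a dynamin of membrane fission, rose to a log2 fold change of 4.92, from 7.11 and 5.24 to 132 and 240.3 CPM. The death domain gene Dthd1 rose from 2.05 and 1.46 to 60.3 and 41.6 CPM (4.85), and the glutamate receptor gene Gria3 from 1.42 and 1.60 to 30.6 and 47.5 CPM (4.66). All 3 were at most 7.11 CPM in WT and at least 30.6 CPM in SDHA-KO libraries. Other large rises rested on few cells. Gzma, which encodes the protease granzyme A, was found at 1.58 and 1.75 CPM in the WT and 233 and 9.59 CPM in the SDHA-KO libraries (log2 change 6.16 ± 1.26 SE, adjusted p = 0.00872). In SDHA-KO replicate 1 the 3 cells with most Gzma held 70.1% of its UMIs, and the fold change was 2.53 without that library and 7.11 without SDHA-KO replicate 2. Hdac9, a histone deacetylase, was found at 0.474 and 1.60 CPM in the WT and 91.9 and 10.5 CPM in the SDHA-KO libraries (log2 fold change 5.55), with 97.5% of its UMIs in 3 cells of SDHA-KO replicate 1. Its fold change was 3.30 without that library, 6.41 without SDHA-KO replicate 2, 4.95 without WT replicate 1 and 6.63 without WT replicate 2. Penk, which encodes the opioid precursor proenkephalin, rose from 4.58 and 4.51 to 72.9 and 77.2 CPM (log2 fold change 4.04), with 65.0% and 62.7% of its UMIs in 3 cells of each SDHA-KO library.

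Among the falls, Mboat2 (mm10 chr12:24830879-24964397, plus strand), a lysophospholipid acyltransferase, went from 83.4 and 84.1 to 6.96 and 2.28 CPM (log2 change -4.18 ± 0.26 SE, adjusted p = 2.92e-05). Its fold change was -5.17 without SDHA-KO replicate 1 and -3.58 without SDHA-KO replicate 2. Unc13a, a gene of vesicle release, fell from 45.8 and 59.7 to 6.03 and 3.20 CPM (log2 fold change -3.51), and Nrn1, which encodes neuritin, from 55.9 and 30.1 to 8.82 and 3.20 CPM (-2.83, and -3.72 without SDHA-KO replicate 1). The metallothionein genes Mt1 and Mt2, whose products bind zinc and copper, fell together. Mt1 was found at 133 and 217 CPM in the WT and 30.6 and 10.5 CPM in the SDHA-KO libraries (log2 change -3.09 ± 0.367 SE, adjusted p = 0.000671, and -4.04 without SDHA-KO replicate 1). Mt2 was found at 29.5 and 56.9 CPM in the WT and 6.03 and 5.03 CPM in the SDHA-KO libraries (log2 change -2.97 ± 0.441 SE, adjusted p = 0.00199). The remaining large falls were genes of glucose use, hypoxia and sterol synthesis, given with their groups next.

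The mitochondrial genome was the first group. Of its 13 genes, 12 fell and none rose in SDHA-KO Tcm cells, with a median log2 fold change of -1.26, beside 0.00 over all genes tested. Mt-Cytb, the cytochrome b of complex III, was found at 17886 and 16599 CPM in the WT and 3606 and 3854 CPM in the SDHA-KO libraries (log2 change -2.21 ± 0.0801 SE, adjusted p = 5.95e-06). Mt-Nd4l, a complex I subunit, was found at 1381 and 1521 CPM in the WT and 332 and 317 CPM in the SDHA-KO libraries (log2 fold change -2.16). Mt-Nd1, from the same complex, was the exception, at 11654 and 10727 CPM in the WT and 11223 and 11622 CPM in the SDHA-KO libraries (0.03, adjusted p = 0.807). The groups overlapped for mt-Nd1 and were apart for the others named. In Tem cells, where 31.7% of 13530 genes were called (15.5% higher and 16.1% lower), the median over the 13 genes was -1.06 with 12 falls.

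The nuclear genes of the respiratory chain did not follow. Of 37 complex I genes, 15 rose and 3 fell (median 0.20). The numbers were 25 and 1 without the composition factor, but 4 and 4 with each cell thinned to 5000 UMIs and 1 and 6 in cells with 5000 to 15000 UMIs. Ndufv3, an accessory subunit, fell from 102 and 121 to 45.02 and 32.4 CPM (log2 change -1.53 ± 0.162 SE, adjusted p = 0.000386). Of 34 genes of complexes III to V, 6 rose and 6 fell, with a median of -0.03, which was 0.18 without the composition factor. They became 3 and 6 when thinned, and no rise and 15 falls (median -0.25) in cells with 5000 to 15000 UMIs. Atp5b, the catalytic subunit of ATP synthase, rose from 346 and 351 to 457 and 484 CPM (log2 change 0.43 ± 0.0811 SE, adjusted p = 0.0058), no longer called without either WT library, at 0.40 and 0.42. Uqcrq, a complex III subunit, fell from 199 and 189 to 129 and 127 CPM (log2 change -0.60 ± 0.089 SE, adjusted p = 0.00193), but its fold change was 0.14 in cells with under 10% mitochondrial UMIs. Transcripts of the mitochondrial and of the nuclear genome for the same complexes thus had different balances of rises and falls.

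Other complex II genes came next. Of 8 complex II and assembly genes, Sdhb (0.43, adjusted p = 0.0279) and the assembly factor gene Sdhaf1 (0.73, adjusted p = 0.00626) rose and only Sdha fell. The call of Sdhaf1 was lost without WT replicate 2, at 0.62, and that of Sdhb without SDHA-KO replicate 1 (0.35), WT replicate 1 (0.37) or WT replicate 2 (0.45). In the TCA cycle 7 of 17 genes rose and 2 fell (median 0.19). The fall of Pcx was the largest change. This gene of pyruvate carboxylase, which feeds oxaloacetate to the cycle, went from 31.6 and 41.2 to 9.75 and 8.22 CPM (log2 change -2.02 ± 0.232 SE, adjusted p = 0.000571).

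Glycolysis genes fell as a group. Of 20 tested, 18 fell and none rose, with a median of -0.94. Slc2a3 (mm10 chr6:122727809-122801640, minus strand), which encodes the glucose transporter GLUT3, was found at 711 and 811 CPM in the WT and 114 and 92.7 CPM in the SDHA-KO libraries (log2 change -2.88 ± 0.122 SE, adjusted p = 7.36e-06). A Slc2a3 UMI was found at equal depth in 80.4%, 86.2%, 35.9% and 29.1% of Tcm cells (91.1%, 94.6%, 46.6% and 39.9% without thinning), beside 8.67%, 9.52%, 7.12% and 6.93% of unstimulated naive CD4 cells. Slc16a3, which encodes the lactate exporter MCT4, fell from 322 and 328 to 142 and 77.7 CPM (log2 change -1.56 ± 0.203 SE, adjusted p = 0.00106). Aldoc, an aldolase, fell from 9.01 and 12.8 to 0.464 and 0.914 CPM (log2 fold change -3.93). Targets of the hypoxia-inducible factor (HIF), which the cell raises when oxygen is short, fell as well, 15 of 17 with none higher and a median of -1.65. Egln3, the prolyl hydroxylase PHD3 and a classical HIF target, was found at 215 and 256 CPM in the WT and 36.7 and 26.04 CPM in the SDHA-KO libraries (log2 change -2.91 ± 0.162 SE, adjusted p = 1.7e-05). P4ha2, a collagen prolyl hydroxylase, fell from 55.3 and 58.9 to 6.03 and 5.03 CPM (log2 fold change -3.36). Gbe1, the glycogen branching enzyme, fell from 304 and 354 to 51.5 and 40.7 CPM (-2.84). In each of these genes both SDHA-KO libraries were below both WT libraries. In Tem cells 20 of 20 glycolysis genes and 16 of 18 HIF targets fell.

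Biosynthetic programs fell along with them. Of 20 genes of sterol synthesis 18 fell and none rose (median -1.41). Lss, which encodes the lanosterol synthase, was found at 44.1 and 39.01 CPM in the WT and 3.71 and 5.03 CPM in the SDHA-KO libraries (log2 change -3.24 ± 0.228 SE, adjusted p = 5.39e-05). Mvd, of the mevalonate pathway, fell from 21.02 and 24.6 to 4.64 and 2.28 CPM (log2 fold change -2.71), and Msmo1, a sterol oxidase, from 254 and 234 to 66.4 and 61.7 CPM (-1.93). Of 22 genes of the integrated stress response, the ATF4 program that raises amino acid synthesis and transport, 18 fell and 1 rose (median -1.03). Vldlr, a lipoprotein receptor gene, fell from 35.6 and 33.8 to 2.78 and 1.83 CPM (log2 change -3.89 ± 0.261 SE, adjusted p = 4.18e-05). Gpt2, a mitochondrial alanine transaminase, fell from 15.2 and 13.1 to 1.39 and 0.914 CPM (log2 fold change -3.58), and the pseudokinase gene Trib3 from 13.4 and 12.2 to 2.78 and 0.914 CPM (-2.78, -3.76 without SDHA-KO replicate 1 and -2.19 without SDHA-KO replicate 2). The gene that rose was Sesn2, a stress-induced inhibitor of mTORC1, at 8.85 and 9.46 CPM in the WT and 17.6 and 22.8 CPM in the SDHA-KO libraries (1.14, adjusted p = 0.00757), no longer called without WT replicate 1, at 1.08.

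The MYC program came next. Of 20 genes of MYC and ribosome biogenesis, 7 rose and 1 fell (median 0.37). Ncl, which encodes the nucleolar protein nucleolin, rose from 1205 and 1012 to 1910.5 and 2225 CPM (log2 change 0.90 ± 0.11 SE, adjusted p = 0.000754). Nolc1, a nucleolar chaperone, rose from 109.7 and 103 to 192 and 212 CPM (log2 change 0.92 ± 0.0938 SE, adjusted p = 0.00031), while Npm1, nucleophosmin, fell from 1941 and 1838 to 1173 and 1189.7 CPM (log2 change -0.68 ± 0.0765 SE, adjusted p = 0.00052). Of 20 genes of mitochondrial import, chaperones and nucleoid, 4 rose and 1 fell, with a median of 0.06. Hspd1, the matrix chaperonin HSP60, was found at 598 and 512 CPM in the WT and 1323 and 1369 CPM in the SDHA-KO libraries (log2 change 1.28 ± 0.0941 SE, adjusted p = 5.96e-05). Lonp1, the matrix protease LON, fell from 85.8 and 84.4 to 52.5 and 39.3 CPM (log2 change -0.89 ± 0.137 SE, adjusted p = 0.00232). Hspd1 and Lonp1 both act on matrix proteins, and they moved apart.

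Cycling was read from transcripts and from cells. Mki67, expressed in dividing cells, was found at 383 and 397 CPM in the WT and 463 and 517 CPM in the SDHA-KO libraries and rose slightly (log2 change 0.33 ± 0.0875 SE, adjusted p = 0.0258). That call was lost without SDHA-KO replicate 2 (0.25), WT replicate 1 (0.29) or WT replicate 2 (0.33), and the fold change was -0.37 in cells with under 10% mitochondrial UMIs. With each cell thinned to 5000 UMIs, which left out 15, 9, 55 and 65 cells, 66.1%, 64.4%, 78.5% and 77.2% of Tcm cells held an Mki67 UMI, beside 44.3%, 45.6%, 36.8% and 29.5% of Tem cells. Without thinning the Tcm shares were 77.8%, 79.3%, 76.3% and 71.3%, so the order of the genotypes turned. Among unstimulated naive CD4 cells, whose median depth was 7102, 7496, 8564.5 and 8184 UMIs, the thinned share was at most 0.434% and the unthinned share at most 0.440%. Shares were not tested, as above. Mki67 was thus found in most Tcm cells of both genotypes, with no stable order between them.

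Of 22 S phase genes 8 rose and none fell (median 0.32), and of 20 G2M genes 7 rose and none fell (median 0.17, but -0.20 in cells with under 10% mitochondrial UMIs). Rrm1, the large subunit of ribonucleotide reductase, rose from 102 and 90.8 to 159 and 165 CPM (log2 change 0.75 ± 0.0976 SE, adjusted p = 0.00108). Cdc20, an activator of the anaphase-promoting complex, rose from 34.9 and 36.8 to 61.7 and 60.8 CPM (log2 change 0.77 ± 0.121 SE, adjusted p = 0.00254). In Tem cells 3 S phase genes rose and 1 fell, and no G2M gene rose and 5 fell. Of 14 genes of G1 control, 4 rose and 3 fell. Cdkn1a, which encodes the cell cycle inhibitor p21, rose from 66.2 and 74.2 to 213 and 231 CPM (log2 change 1.66 ± 0.0997 SE, adjusted p = 2.38e-05). Cdkn1b, the inhibitor p27, fell from 47.2 and 50.5 to 18.1 and 22.4 CPM (log2 change -1.27 ± 0.158 SE, adjusted p = 0.000829). Inhibitors of the same family thus moved in opposite directions.

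Of 23 apoptosis genes, 9 rose and 3 fell (median 0.40). Bax, a pore-forming executioner of the mitochondrial pathway, was found at 99.7 and 100.3 CPM in the WT and 408 and 396 CPM in the SDHA-KO libraries (log2 change 2.01 ± 0.0839 SE, adjusted p = 7.36e-06), and at equal depth 36.0%, 35.9%, 85.1% and 81.6% of Tcm cells held a Bax UMI (61.3%, 62.3%, 89.8% and 90.1% without thinning), beside 34.0%, 31.6%, 43.5% and 36.2% of unstimulated naive CD4 cells. Pmaip1, the BH3-only protein NOXA, rose from 5.37 and 4.80 to 16.7 and 18.3 CPM (log2 change 1.78 ± 0.26 SE, adjusted p = 0.00182). Bbc3, the BH3-only protein PUMA, rose from 10.1 and 8.15 to 16.7 and 38.4 CPM (log2 change 1.60 ± 0.345 SE, adjusted p = 0.0111), with a fold change of 0.88 without SDHA-KO replicate 2 and no call without WT replicate 2 (1.42). The inhibitor gene Bcl2 fell from 1107 and 1319 to 893 and 690.3 CPM (log2 change -0.62 ± 0.131 SE, adjusted p = 0.0103), no longer called without WT replicate 2, at -0.51. The other falls were of genes that promote death. Casp9, the initiator caspase of the mitochondrial pathway, changed by -1.35, a call lost without SDHA-KO replicate 2 (-1.07), WT replicate 1 (-1.09) or WT replicate 2 (-1.60), and the BH3-only gene Bad by -1.33, a call lost without WT replicate 1 (-1.18). Genes that promote death thus moved both ways.

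**Figure D4:**
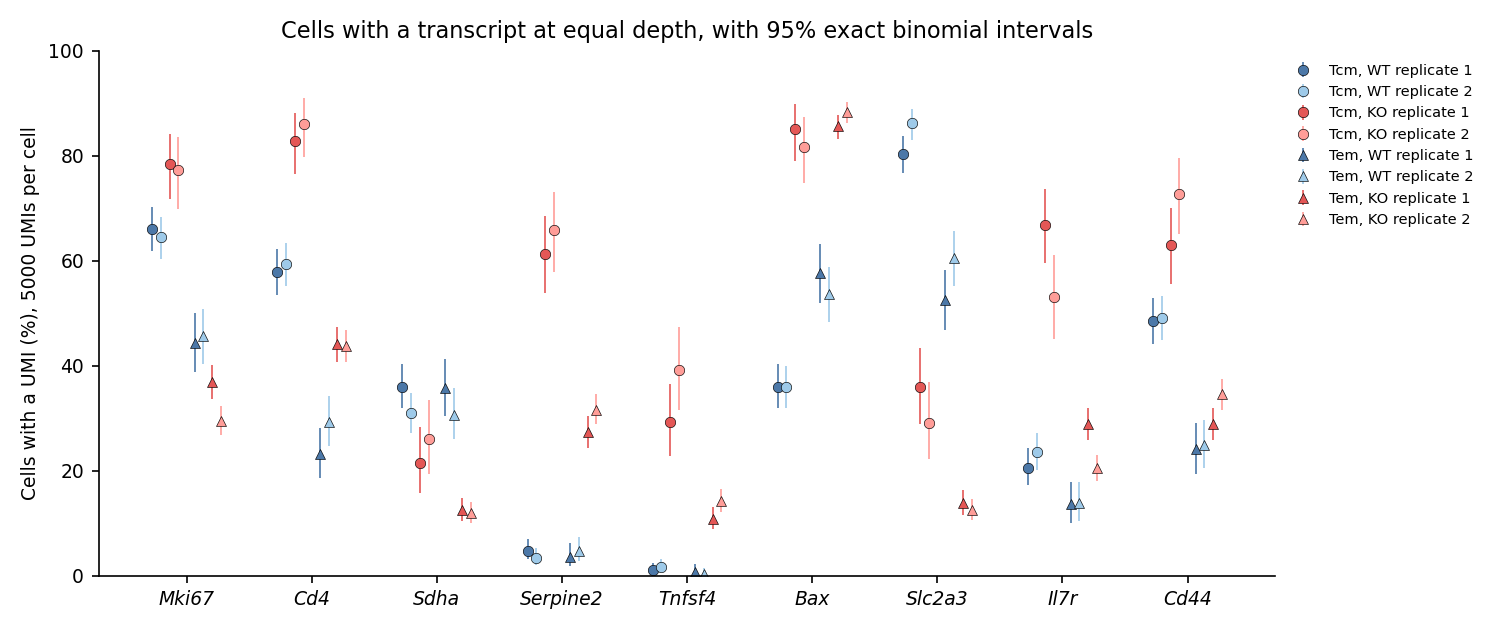
Share of cells with at least 1 UMI of a gene (%) after each cell was thinned to 5000 UMIs, in CD4 Tcm (circles) and CD4 Tem cells (triangles) of each stimulated library, with 95% exact binomial intervals that cover counting error only. In Tcm cells Serpine2, Tnfsf4 and Bax are found in more SDHA-KO than WT cells, and Slc2a3 in fewer (35.9% and 29.1% against 80.4% and 86.2%).

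Genes of T cell identity changed in both directions. Of 18 genes of central memory and quiescence, 7 rose and 4 fell (median 0.25). Besides Il7r, Satb1, a chromatin organizer of T cells, rose from 884 and 1077 to 2329 and 1874 CPM (log2 change 1.10 ± 0.127 SE, adjusted p = 0.000573). Slamf6, a receptor of stem-like T cells, fell from 82.2 and 62.3 to 30.6 and 32.4 CPM (log2 change -1.19 ± 0.175 SE, adjusted p = 0.0019), and Pecam1, an adhesion molecule of quiescent T cells, from 116 and 110.3 to 58.9 and 70.8 CPM (log2 change -0.80 ± 0.114 SE, adjusted p = 0.00159). Of 16 genes of effector memory and migration, 7 rose and 2 fell (median 0.28, but -0.14 in cells with under 10% mitochondrial UMIs). Ccr8, a chemokine receptor gene, rose from 19.4 and 26.3 to 63.1 and 43.4 CPM (log2 change 1.21 ± 0.211 SE, adjusted p = 0.00411). S100a6 rose from 1.90 and 3.64 to 35.3 and 10.1 CPM (3.01, 1.86 without SDHA-KO replicate 1 and 3.65 without SDHA-KO replicate 2). Members of both memory programs moved both ways.

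Receptors and cytokines were mixed too. Of 19 genes of costimulation and inhibition, 7 rose and 2 fell (median 0.20). Cd226, the activating receptor DNAM-1, rose from 221 and 213 to 401 and 509 CPM (log2 change 1.07 ± 0.115 SE, adjusted p = 0.000416). The activation-induced receptors Tnfrsf9 (4-1BB) and Ctla4 were those that fell. Ctla4 went from 463 and 516 to 290.1 and 265 CPM (log2 change -0.82 ± 0.0948 SE, adjusted p = 0.00059). Tnfrsf9 went from 980.1 and 1127 to 651 and 530.0 CPM (log2 change -0.84 ± 0.115 SE, adjusted p = 0.00139). Of 17 cytokine genes tested, 6 rose and 4 fell, with a median of 0.89 that was 0.56 to 1.29 with 1 library left out. The balance depended on the cells taken, with 5 rises and 5 falls (median 0.25) when thinned to 5000 UMIs, 4 and 5 (0.08) in cells with 5000 to 15000 UMIs, and 3 and 5 (0.11) in strict cells. Xcl1, a chemokine for cross-presenting dendritic cells, rose from 21.6 and 12.1 to 108 and 65.3 CPM (log2 change 2.37 ± 0.291 SE, adjusted p = 0.000795). Csf2, which encodes GM-CSF, rose from 4.58 and 9.02 to 49.2 and 10.5 CPM (log2 change 2.11 ± 0.586 SE, adjusted p = 0.0304), no longer called without SDHA-KO replicate 1 (0.63) or WT replicate 1 (1.70), and the fold change was 2.84 without SDHA-KO replicate 2. Lta and Ltb, which form lymphotoxin, fell. Lta went from 141 and 193 to 69.2 and 69.9 CPM (log2 change -1.26 ± 0.162 SE, adjusted p = 0.000995) and Ltb from 573 and 543 to 295 and 320.3 CPM (log2 change -0.86 ± 0.0867 SE, adjusted p = 0.000295). Il2 fell from 179 and 150.5 to 78.9 and 108 CPM (log2 change -0.82 ± 0.149 SE, adjusted p = 0.00504), but its fold change was 0.06 in cells with 10 to 20% mitochondrial UMIs and 1.08 in cluster Tcm3. Ifng, with overlapping groups at 69.7 and 133 CPM in the WT and 376 and 124 CPM in the SDHA-KO libraries, did not pass the test (1.30, adjusted p = 0.0608), but passed it without SDHA-KO replicate 2 (1.89) or WT replicate 2 (1.82), and its fold change was 0.30 without SDHA-KO replicate 1.

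Of 12 cytotoxicity genes, 9 rose and none fell (median 0.81). In strict cells 4 rose and none fell (median 0.54). SDHA-KO replicate 1 held the highest level of the largest rises. Besides Gzma, these were Gzmc, another granzyme, and Prf1, which encodes perforin. Gzmc was found at 0.790 and 0.582 CPM in the WT and 58.5 and 2.74 CPM in the SDHA-KO libraries, and 3 cells of SDHA-KO replicate 1 held 93.7% of its UMIs. Its log2 fold change of 5.43 was 1.98 and not called without that library and 6.38 without SDHA-KO replicate 2. Prf1 was found at 6.79 and 6.99 CPM in the WT and 37.6 and 9.14 CPM in the SDHA-KO libraries (log2 change 1.75 ± 0.506 SE, adjusted p = 0.0353). It was no longer called without SDHA-KO replicate 1 (0.42), WT replicate 1 (1.71) or WT replicate 2 (1.75), and its change was 2.45 without SDHA-KO replicate 2. The other 6 genes that rose had log2 fold changes of 0.55 to 1.57. Of 22 interferon-stimulated genes 9 rose and none fell (median 0.44). Bst2, which encodes tetherin, was found at 164 and 160.0 CPM in the WT and 483 and 512 CPM in the SDHA-KO libraries (log2 change 1.62 ± 0.0839 SE, adjusted p = 1.52e-05). Igtp, an interferon-induced GTPase, rose from 168 and 189 to 326 and 389 CPM (log2 change 1.00 ± 0.109 SE, adjusted p = 0.000435). The other 7 rose by 0.37 to 0.81.

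Lineage factors rose more often than they fell, 8 against 2 of 16 (median 0.50). Ikzf2, which encodes Helios, was found at 38.9 and 28.96 CPM in the WT and 210.3 and 242 CPM in the SDHA-KO libraries (log2 change 2.74 ± 0.143 SE, adjusted p = 1.52e-05). Gata3, the type 2 helper factor, rose from 68.7 and 82.1 to 256 and 153 CPM (log2 change 1.44 ± 0.207 SE, adjusted p = 0.00169). Ahr, the aryl hydrocarbon receptor, rose from 5.85 and 3.93 to 29.7 and 22.4 CPM (log2 change 2.41 ± 0.279 SE, adjusted p = 0.000588), while Rora fell from 66.4 and 56.9 to 34.8 and 18.3 CPM (log2 change -1.22 ± 0.229 SE, adjusted p = 0.006). In the IL-2 axis, 5 of 16 genes rose, among them the IL-12 receptor chain Il12rb2, from 241 and 288 to 668 and 529.5 CPM (log2 change 1.18 ± 0.129 SE, adjusted p = 0.000451), and Il2 alone fell. Of 30 genes of T cell receptor signaling 8 rose and 2 fell (median 0.11). Nfkbia, the NF-kB inhibitor that NF-kB itself induces, rose from 124 and 140.0 to 336 and 338 CPM (log2 change 1.35 ± 0.0931 SE, adjusted p = 4.69e-05), and chains of the receptor complex rose by less, such as Trbc1 (0.77, adjusted p = 0.000521). Antioxidant and metallothionein genes split, with 4 of 17 higher, 3 lower and a median of -0.02, which was 0.19 without the composition factor. Gpx1, a glutathione peroxidase, rose from 47.4 and 43.95 to 77.98 and 94.6 CPM (log2 change 0.92 ± 0.126 SE, adjusted p = 0.00139), against the falls of Mt1 and Mt2.

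**Figure D5:**
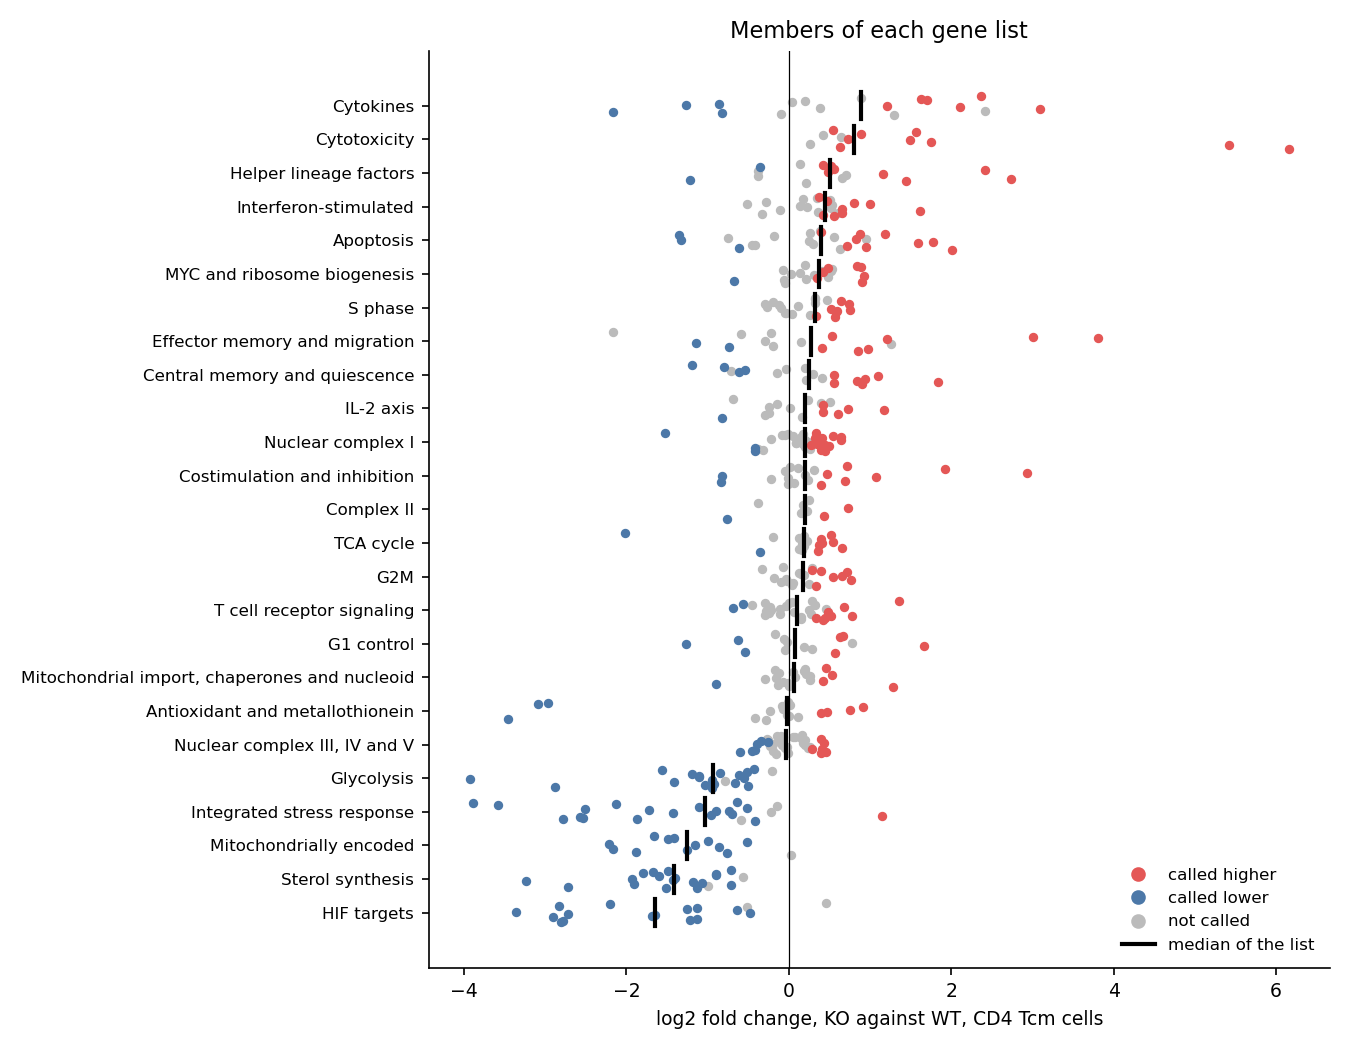
Log2 fold change, SDHA-KO against WT, of each tested member of 25 gene lists in CD4 Tcm cells, with called genes in red (higher) or blue (lower), others in grey and a bar at the list median. The medians run from -1.65 for HIF targets to 0.89 for cytokines, which was 0.25 with each cell thinned to 5000 UMIs, and HIF targets, sterol synthesis, mitochondrially encoded genes and glycolysis hold no called rise.

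Because the mitochondrial percentage differed between genotypes, each list was also counted in cells matched more closely on it. This did not match depth. The 31 and 40 WT cells under 10% held 600789 and 777870 UMIs in all, and the 102 and 103 SDHA-KO cells 1033333 and 1116462. The WT cells kept were thus deeper on average. In Tcm cells with under 10% mitochondrial UMIs, 17.8% of 8836 genes were called, 9.13% higher and 8.70% lower, with a median fold change over all genes of 0.00. There HIF targets had 15 falls, sterol synthesis 14 and glycolysis 11, each with no rise, and the integrated stress response had 6 falls and 1 rise. Of the mitochondrially encoded genes 8 fell and 1 rose, mt-Nd1, and the median was -0.65. Complex I and complexes III to V had 16 rises each and no fall, with medians of 0.65 and 0.66. Apoptosis genes had 7 rises and 1 fall, and cytotoxicity genes 3 rises and no fall. In cells with 10 to 20% mitochondrial UMIs, a band chosen after the data were seen, 17.5% of 10165 genes were called, 9.19% higher and 8.33% lower. The falls numbered 15 of HIF targets, 17 of sterol synthesis, 14 of glycolysis, 11 of the integrated stress response and 8 of the mitochondrial genome, whose median was -0.42. Cytotoxicity genes had 6 rises and no fall there. The falls of the metabolic programs were thus seen within these ranges too, whereas the nuclear respiratory chain held mostly rises within them. Calls lost under 10% included those of Ndufv3, Npm1 (-0.07), Lonp1, Rrm1, Slamf6 (-0.31), Cd226, Il12rb2 (0.44) and Ikzf2 (1.20), with fewer cells in the fit.

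The number of UMIs per cell differed between genotypes as well, so the lists were counted at matched depth. With each cell thinned to 5000 UMIs 20.5% of 10003 genes were called, and in cells with 5000 to 15000 UMIs, a band chosen after the data were seen, 22.8% of 10616 genes. In these settings HIF targets had 15 and 14 falls, sterol synthesis 19 and 18, glycolysis 18 and 16 and the mitochondrial genome 12 and 12, each with no rise, and the integrated stress response had 15 falls and no rise in both. Cytotoxicity genes had 8 and 7 rises and no fall. The nuclear respiratory chain had as many falls as rises or more in both settings, as given above, whereas rises prevailed in the mitochondrial bands. The median of complex I stayed positive, at 0.14 and 0.06, and that of complexes III to V was -0.12 and -0.25. Interferon-stimulated genes had 7 and 4 rises and 1 fall in each. In the band of 5000 to 15000 UMIs the calls of Atp5b (0.28), Sdhb (0.36) and Prf1 (1.14) were lost, and Cd8a was called higher (1.19).

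Whether the effect of genotype differed between Tcm and Tem cells was tested in 1 edgeR model of both subsets with the library as a block. Of 14044 genes, 4.66% were called, 424 (3.02%) with a higher and 230 (1.64%) with a lower fold change in Tcm cells. Cd83, an activation marker, rose in Tcm cells from 31.3 and 29.3 to 132 and 101 CPM (log2 fold change 1.95) and changed by 0.54 in Tem cells, a difference of 1.40 ± 0.186 SE, adjusted p = 0.0024. For Hspd1 the fold changes were 1.28 and 0.12, a difference of 1.15 ± 0.0664 SE, adjusted p = 5.24e-06. Those of Ncl were 0.90 and -0.19, a difference of 1.08 ± 0.0591 SE, adjusted p = 3.5e-06. Marcks, a substrate of protein kinase C, had 2.05 and 0.77 (1.26 ± 0.228 SE, adjusted p = 0.0111), and Lad1, an anchoring filament gene, had 2.23 and 0.97 (1.25 ± 0.162 SE, adjusted p = 0.00205). Ikzf2 differed by 1.11 ± 0.173 SE, adjusted p = 0.00537, but by -0.48 in cells with under 10% mitochondrial UMIs. Each of these genes was higher in both SDHA-KO than in both WT libraries of Tcm cells. The number of differences called was 1036 without SDHA-KO replicate 2, and 79 with no library block, where those of Marcks, Lad1, Ikzf2 and Ifng were not called.

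Other differences were lower in Tcm cells. Lars2, the mitochondrial leucyl-tRNA synthetase, was found at 1415 and 1755 CPM in the WT and 415 and 411 CPM in the SDHA-KO libraries (log2 change -1.94 ± 0.112 SE, adjusted p = 1.9e-05), and its fold change was -0.12 in Tem cells, a difference of -1.83 ± 0.0884 SE, adjusted p = 1.19e-06. Cmss1 went from 6643 and 9097 to 2547 and 2282 CPM and had fold changes of -1.70 in Tcm and 0.06 in Tem cells (-1.76 ± 0.076 SE, adjusted p = 5.54e-07). Cdk8, a kinase of the Mediator complex, went from 2965 and 2876 to 1118 and 1126 CPM, with -1.38 and -0.03 (-1.36 ± 0.058 SE, adjusted p = 5.54e-07). Whether the counts of Lars2, Cmss1 and Cdk8 came only from mRNA of these genes was not tested. Snhg15, a small nucleolar RNA host gene, rose by 1.38 in Tcm and by 2.47 in Tem cells (-1.10 ± 0.105 SE, adjusted p = 0.000318), a difference of -0.36 and not called in cells with under 10% mitochondrial UMIs. Ifng, not called in Tcm cells, rose by 3.35 in Tem cells (-2.10 ± 0.206 SE, adjusted p = 0.00037). Among the lists, G2M genes had 7 of 20 differences called, all higher in Tcm cells, and glycolysis 7 of 20, also higher, that is, with smaller falls. Mitochondrially encoded genes had 7 lower and 1 higher of 13. Cdc20 and Rrm1 were among the cell cycle genes, with differences of 1.01 ± 0.131 SE, adjusted p = 0.00205 and of 0.94 ± 0.111 SE, adjusted p = 0.0012.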

How the data were processed

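Splenic T cells were profiled by 3′ single-cell RNA sequencing in 8 libraries, 2 for each genotype and condition. The authors aligned reads to mm10 with Cell Ranger, merged the libraries and removed cells with very many detected genes and clusters without Cd3 transcripts. The authors assigned the CD4 and CD8 classes from a log10 ratio of Cd4 to Cd8a, deposited per cell, and named the subsets of clusters from marker genes. The version of Cell Ranger and the treatment of doublets are not given in the sources used here. The deposited files hold raw UMI counts per gene and cell and a table with each cell's library, class, subset, cluster, number of genes and percent of mitochondrial UMIs. The cell table was checked against the counts and matched them in all 12846 cells.

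Counts were summed per library over the CD4 Tcm and over the CD4 Tem cells, with libraries grouped by their labels. Genotypes were compared with the edgeR quasi-likelihood test (edgeR 4.0.16, R 4.3.3) after filterByExpr and TMM scaling, with Benjamini-Hochberg adjustment at 0.05. Each SE was derived from that test, as the absolute log2 fold change divided by the square root of its F statistic. The difference between subsets was an interaction in a model with the library as a block. Tcm to Tem ratios used a pseudocount of 1 CPM. Shares were computed with each cell thinned to 5000 UMIs and given with 95% Clopper-Pearson intervals, which cover counting error only. The tests were checked on simulated data. Gene coordinates are from a GENCODE annotation of mm10. Named genes were the target and annotation genes, the 10 largest called rises and falls with an average of at least 20 CPM and separate groups, the largest changes within each list, the extremes of the Tcm to Tem ratio and the largest differences between subsets. Of the rises of that size, 1 is not reported here, nor are some annotation and list genes. Members and gene lists were chosen with earlier results of these data known. Alternatives were another scaling or none, no filter, DESeq2 1.42.0, limma 3.58.1, a replicate block, thinned counts, subsets of cells and leaving out each library.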

Additional observations from a re-analysis of the deposited data

Results flagged for a closer look

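In 654 genes the effect of genotype, SDHA-KO against WT, differed between the CD4 Tcm and the CD4 Tem cells of the same libraries, by the interaction test in edgeR. As differences of log2 fold changes, Tcm minus Tem, those named were 1.40 for Cd83, 1.26 for Marcks, 1.25 for Lad1, 1.15 for Hspd1, 1.11 for Ikzf2, 1.08 for Ncl, 1.01 for Cdc20, 0.94 for Rrm1 and 0.92 for Sdha. Lower values in Tcm cells were -2.10 for Ifng, -1.83 for Lars2, -1.76 for Cmss1, -1.36 for Cdk8 and -1.10 for Snhg15. With 2 libraries per group, no sample could be tested as an outlier.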

How the results depend on the processing

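The 2956 genes called in Tcm cells became 1516 with DESeq2, 1576 in cells with under 10% and 1781 in cells with 10 to 20% mitochondrial UMIs, 1100 in cluster Tcm2, 1316 in Tcm3 and 1548 in Tcm4, and 1338 to 3350 with 1 library left out (1338 without WT replicate 2, 1502 without WT replicate 1). The 4284 calls in Tem cells became 1855 when thinned and 2504 (without WT replicate 2) to 3909 with 1 library left out, and 2534 without WT replicate 1. The 654 differences between the subsets became 1397 in cells with under 10% mitochondrial UMIs, 384 with no filter, 79 with no library block, 61 with the replicate block, 321 in strict cells, 404 when thinned and 557 to 1036 (without SDHA-KO replicate 2) with 1 library left out. Replicate numbers pair the libraries in name only: same-numbered libraries' deviations correlated at -0.02 in Tcm and 0.01 in Tem cells, and a replicate block gave 2379 and 3246 calls. Under that block the calls of Mki67, Sdhb, Csf2, Ndufa2, Ccne1 and Cs were lost, as were the differences of Marcks, Ikzf2 and Ifng, and no other named call changed.

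The difference in Tcm share, -43.1 percentage points, became -18.5 of all cells, -0.0466 among cells with under 10% mitochondrial UMIs and -44.8 to -41.4 with 1 library left out. The difference in median UMIs, -3717.25, became -4212.5 in strict cells, -2287.75 for nuclear genes and -3990.5 to -3444 with 1 library left out, and that in mitochondrial percentage, -9.99, became -10.6 to -9.39. The difference in Mki67 share, 12.6 points, became -4.75 without thinning, -7.47 in cells with under 10% mitochondrial UMIs and 11.7 to 13.4 with 1 library left out. The causes were not tested.

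Of 3242 alternative fold changes of 159 named genes, 2883 kept their direction and side of the threshold, 329 lost and 13 gained the call, and 17 turned. Limma on log-normalized values gave smaller fold changes for most genes. In cells with under 10% mitochondrial UMIs Mki67 turned to -0.37, Cd8a to -0.90, Ndufa2 to 0.0189, Ndufa7 to 0.39, Uqcrq to 0.14, Uqcr10 to 0.0936, Uqcr11 to 0.40 and the difference of Ikzf2 to -0.48. In the 10 to 20% band Prf1 turned to -0.0304, Il2 to 0.0594, mt-Nd2 to 0.0924 and mt-Co1 to 0.10. Il2 was 1.08 in Tcm3. Ifng was -0.76 in strict cells and -0.0632 in cells with 5000 to 15000 UMIs. Mt-Nd1 was -0.15 in Tcm4, -0.0810 in cells with 5000 to 15000 UMIs and between -0.0501 (without WT replicate 2) and 0.0715 with 1 library left out.

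List medians turned as follows. Antioxidant genes reached 0.20 in Tcm3, 0.21 in the 10 to 20% band, 0.30 under 10%, 0.19 with no composition factor, 0.000690 thinned and -0.0769 to 0.0407 with 1 library left out. Complexes III to V reached 0.0782 in Tcm3, 0.0927 in Tcm4, 0.20 in the 10 to 20% band, 0.66 under 10% and 0.18 with no composition factor. Under 10%, ribosomal proteins reached 0.24, effector memory genes -0.14 and G2M genes -0.20. Central memory genes were -0.16 and the IL-2 axis -0.12 in Tcm3, and the IL-2 axis was -0.00128 to 0.25 with 1 library left out. Complex II was -0.0179 and mitochondrial import -0.12 in Tcm2, and import -0.0130 in Tcm3. G1 control was -0.11 in Tcm4 and -0.00301 to 0.24 with 1 library left out, and T cell receptor signaling was -0.00193 in Tcm2 and -0.0114 in Tcm4. With 2 libraries per group and 223 cells in the smallest, transcripts under a few CPM rest on a handful of UMIs.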

Other observations

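Further groups of genes, listed after their values were seen and so described with no test of the group, also changed in SDHA-KO Tcm cells. Of 29 genes known as targets of p53, 23 rose and none fell, with a median log2 fold change of 1.52. Phlda3, an inhibitor of AKT, rose from 7.27 and 5.53 to 57.1 and 85.4 CPM (log2 change 3.48 ± 0.236 SE, adjusted p = 4.37e-05). Psrc1, a spindle protein, rose from 13.4 and 12.2 to 106 and 98.7 CPM (log2 change 2.99 ± 0.131 SE, adjusted p = 8.64e-06). In cells with under 10% mitochondrial UMIs 18 of these genes rose and none fell, with a median of 1.43, and in Tem cells 24 of 29 rose and none fell.

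Replication-dependent histone genes fell, 51 of 60 with none higher and a median of -1.53, against 58 of 62 in Tem cells. Hist1h1a, a linker histone, fell from 41.7 and 39.3 to 3.71 and 8.68 CPM (log2 change -2.70 ± 0.263 SE, adjusted p = 0.000244), and its fold change was -2.20 without SDHA-KO replicate 1 and -3.43 without SDHA-KO replicate 2. These transcripts mostly lack a poly(A) tail, on which 3′ libraries depend. Of 81 genes picked by symbol as cytosolic ribosomal proteins, 62 fell and 2 rose (median -0.42). The 2 that rose were Rps27l and Rpl7l1, whose symbols resemble those of ribosomal proteins. In cells with under 10% mitochondrial UMIs, however, 2 of the listed genes fell and 13 rose (median 0.24). All 5 nuclear-retained RNAs fell, with a median of -0.70. Xist is among them. The labels do not give the sex of the mice, the paper used both sexes in vitro, and the part of sex was not tested. Gm42418, which overlaps a ribosomal RNA repeat and was chosen after its values were seen, was found at 25861 and 32007 CPM in the WT and 13608 and 12674 CPM in the SDHA-KO libraries (log2 fold change -1.14) in Tcm cells and had a fold change of 0.34 in Tem cells. Lars2, Cmss1 and Cdk8, given above, likewise fell in Tcm cells and changed little in Tem cells. Whether their counts hold reads of such repeats was not tested.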
